A study of Mus musculus with 6 samples.

Results

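Myoglobin, the creatine kinases, the heart fatty acid binding protein and the muscle forms of cytochrome oxidase subunits supply and buffer energy in striated muscle. The genes were chosen by name: Mb, Ckm, Ckb, Ckmt1, Ckmt2, Fabp3, Cox6a2, Cox7a1 and Cox8b. Of these 9 genes, 7 had a probe in the platform annotation, with 1 probe each, out of 21880 annotated spots on the array. Ckb and Cox8b are not analysed here. The set was drawn up with the mutant and control values of Mb and Ckmt2 already known, so the differences below describe these arrays and carry no independent test.

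Hearts were dissected from mouse embryos at embryonic day 11.5 and hybridised to single-colour CodeLink arrays. In the 3 mutant hearts, Dicer was inactivated with a Cre knocked in at the Nkx2.5 locus, which is active in cardiac progenitors and their descendants, so cells of the heart outside that lineage could keep the gene. The 3 control hearts are labelled as controls, with no genotype given in the sources used here. Whether each array held 1 heart or a pool is not given either, so the spread between arrays may be partly technical.

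Myoglobin is a haem protein that binds oxygen in heart and skeletal muscle. Creatine kinases move phosphate between ATP and creatine: Ckm and Ckb encode the muscle and brain forms of the cytosolic enzyme, Ckmt2 the sarcomeric and Ckmt1 the ubiquitous mitochondrial form. Fabp3 carries fatty acids through the cytosol of heart and muscle cells. Cox6a2, Cox7a1 and Cox8b encode subunits of cytochrome oxidase, the last complex of the respiratory chain, in the forms that striated muscle uses in place of Cox6a1, Cox7a2 and Cox8a.

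Dicer1, the inactivated gene, had normalized log2 intensities of 6.74, 6.73 and 6.68 in mutant hearts, against 7.82, 7.63 and 7.71 in control hearts. The groups did not overlap, and the difference of -1.005 ± 0.091 (SE) passed the test (limma adjusted p = 0.036). This call was lost in 8 of 21 other settings, among them each array left out in turn except control 3, with adjusted p from 0.00173 to 1 over all 21. The Dicer1 spot was dim, at 2.15 to 2.62 times its local background in the mutants and 4.84 to 5.62 times in the controls. The size of its difference depended on the background correction, at -1.59 on the background-subtracted intensity and -1.49 on the authors' normalized intensity. Where the probe lies relative to the deleted part of Dicer1 is not known here. The share of spots above background was 74.1% to 78.2% per array. The arrays did not separate by group on their first principal component, where control 3 (-20.8) lay with mutant 1 (-18.3) and mutant 2 (-30.1), while mutant 3 lay at 5.63 and controls 1 and 2 at 37.3 and 26.3. Of 19 cardiomyocyte marker genes, 18 had a probe and 17 of those were above background on all 6 arrays.

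Over all 7 members, Mb was far lower in the mutants. Cox6a2 and Fabp3 lay lower, and Ckmt2 and Cox7a1 higher, on every mutant array than on any control array. Among these the gap was narrowest for Cox7a1, at 0.05 log2 units. Ckm and Ckmt1 overlapped between the groups. In whole hearts, fewer cells of a type and less RNA per cell cannot be told apart. None of the 7 probes passed limma's test over all 17727 probes tested, with adjusted p between 0.131 and 0.666. Over all those probes 9 passed, or 0.0508%. At an unadjusted p under 0.05 there were 4 member probes, beside 10% of all probes, and 1 of the 4 was Ckmt1, which entered the test through the mutants. The groups did not overlap in 5 of the 7, beside 15.2% of all probes: the mutants lay above in 2 members, beside 9.89% of all probes, and below in 3, beside 5.28%. Because the genes were picked with this comparison known, nothing is read from these counts. The median difference of the members was -0.34, and that of all probes tested 0.02 (log2, mutant minus control).

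**Figure D1:**
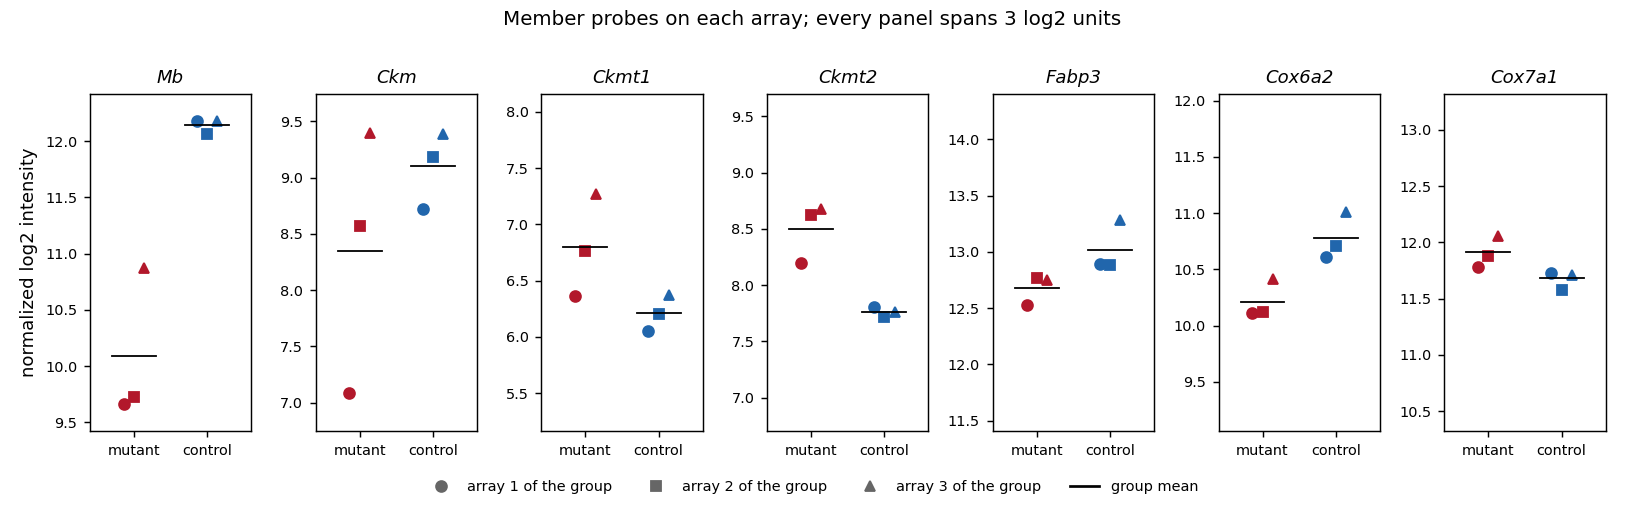
Normalized log2 intensity of the 7 member probes (vertical axis, a span of 3 log2 units in every panel) on each mutant array (red, left) and control array (blue, right), with a bar at each group's mean. Mb stands between 9.66 and 10.87 in the mutants and between 12.06 and 12.18 in the controls, and the spread of Ckm in the mutants exceeds that of every other member shown.

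Mb had log2 intensities of 9.66, 9.73 and 10.87 in mutants 1, 2 and 3, against 12.18, 12.06 and 12.18 in controls 1, 2 and 3. All mutants lay below all controls, with 1.19 log2 units between the nearest pair, and mutant 3 stood above the other two mutants while the controls were close together. On the authors' normalized linear scale the same arrays gave 9.92, 10.6 and 24.2 in the mutants, against 64.4, 54.2 and 57.1 in the controls. The spot was bright throughout, between 20.6 and 40 times its local background in the mutants and between 104 and 113 times in the controls, and it was not saturated on any array.

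The log2 difference of Mb was -2.06 ± 0.32 (SE, n = 3 each), or a level in the mutants of 0.24 times that in the controls (95% interval 0.142 to 0.406), with a limma adjusted p of 0.131. Of all probes tested, 2 had a more negative difference: Ctse, at -3.14 ± 1.33 (SE, limma adjusted p = 0.505), and Tnnt1, the slow skeletal troponin T, which fell by 2.21 ± 0.17 (limma adjusted p = 0.036). An exact permutation test of 3 against 3 arrays cannot give a two-sided p below 0.1. Every probe whose groups do not overlap reaches that value, 15.2% of all probes and Mb among them. Mb was chosen with its values known, so nothing is read from its reaching it. The labels do not say what the first part of each array's title means. It was taken as the slide, which places mutants 1 and 2 and control 1 together and each other array alone. Within that inferred slide the Mb difference was -2.49. With the slide as a fixed block, which sets 2 mutants against 1 control, limma gave an adjusted p of 0.0171, in a fit that called 1347 probes. With the slide as a random block the difference was -2.08 and the adjusted p 0.104. Mutant 3 was the mutant nearest the controls. Without it the difference was -2.45 with a limma adjusted p of 0.008, and Mb was then the single probe called on the whole array. With any other array left out Mb was not called. The limma adjusted p of Mb was 0.299 without mutant 1 and 0.497 without mutant 2. It was 0.394, 0.699 and 0.0584 without control 1, 2 and 3 in turn. Over the 21 other settings the difference lay between -2.49 and -1.81 and the adjusted p between 0.000389 and 1.

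**Figure D2:**
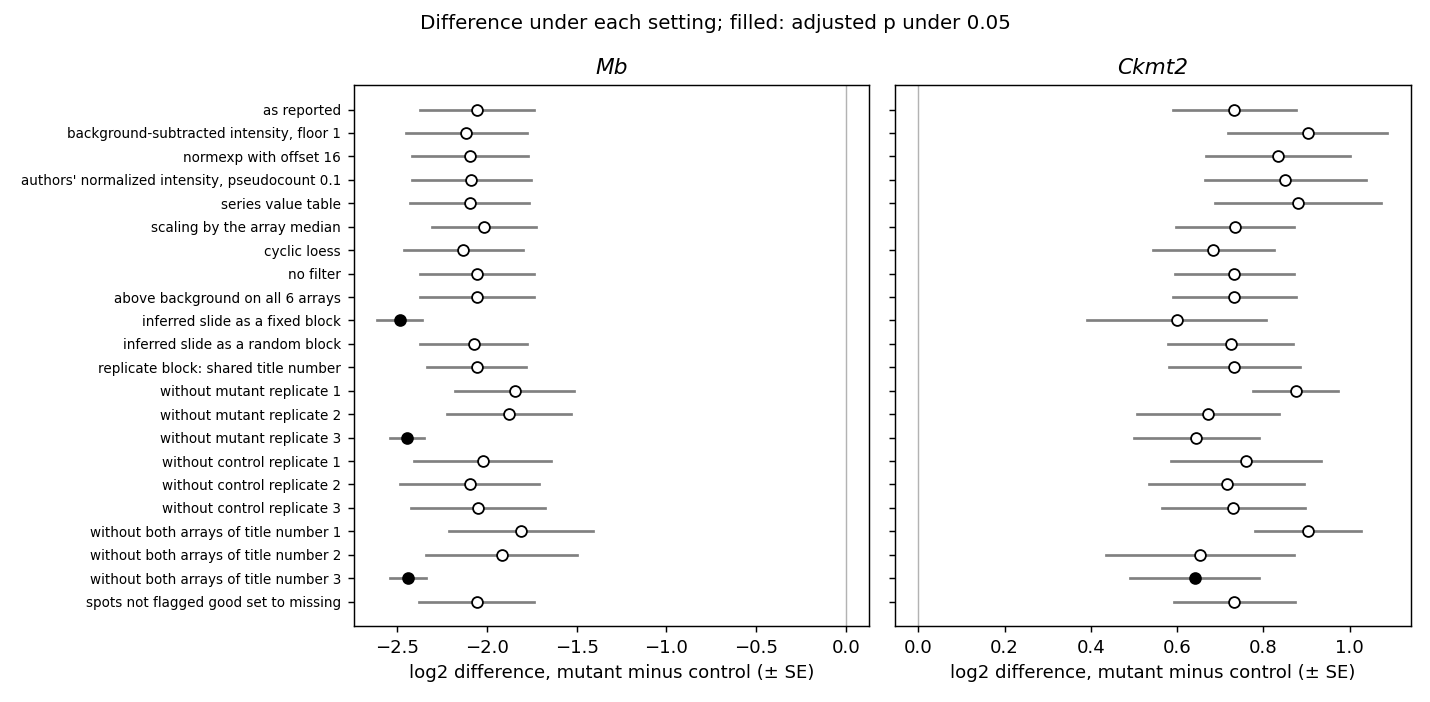
Log2 difference, mutant minus control, with its SE, for Mb (left) and Ckmt2 (right) as reported and under 21 other settings named on the vertical axis. Filled circles have a limma adjusted p under 0.05: 3 settings for Mb and 1 for Ckmt2, and every value keeps the sign of the one reported.

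RefSeq's promoter table (GRCm38.p6) holds windows for 8 of the 9 genes. The 250 bases before the transcript start are shown for Mb, the member with the largest negative difference, and for Ckmt2, the one with the largest positive difference among members above background on all arrays, so that the 2 sequences can be read side by side. Mb has 3 annotated starts, and the window shown (chr15:77022788-77023037, minus strand) is that of the upstream member of a nearby pair. That of Ckmt2 is chr13:91876886-91877135, minus strand. Capitals mark each E-box, CANNTG, the motif bound by basic helix-loop-helix factors such as those of muscle, and each CCAC box, CCCACCCC, on either strand.
Mb: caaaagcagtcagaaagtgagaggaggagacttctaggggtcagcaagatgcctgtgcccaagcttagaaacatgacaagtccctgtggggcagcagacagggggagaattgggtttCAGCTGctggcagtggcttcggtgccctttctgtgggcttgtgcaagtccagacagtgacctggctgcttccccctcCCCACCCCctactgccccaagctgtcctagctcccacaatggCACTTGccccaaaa
Ckmt2: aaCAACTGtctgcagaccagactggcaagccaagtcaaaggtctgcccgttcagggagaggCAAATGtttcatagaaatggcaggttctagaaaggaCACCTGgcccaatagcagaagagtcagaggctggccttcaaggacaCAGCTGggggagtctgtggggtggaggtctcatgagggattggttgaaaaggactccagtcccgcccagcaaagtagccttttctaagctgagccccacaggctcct
The Mb window holds 2 E-boxes and 1 CCAC box, and the Ckmt2 window 4 E-boxes. An E-box is present in 66.2% and a CCAC box in 8.5% of all 32851 windows of this length. Neither window holds a MEF2 site, searched as CTA and TAG with 4 bases between them, which 3.2% of windows hold, or TATAAA, which 12.4% hold on either strand. These matches describe letters in the windows and no binding was measured.

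Ckm, the cytosolic creatine kinase of muscle, had log2 intensities of 7.09, 8.57 and 9.40 in mutants 1, 2 and 3, against 8.72, 9.18 and 9.39 in controls 1, 2 and 3. Mutants 1 and 2 lay below every control and mutant 3 level with the highest one, so the groups overlapped. The mutants spanned a 4.94-fold range, which 0.136% of all probes tested matched or exceeded, and the controls a 1.6-fold range. The difference was -0.74 ± 0.55 (SE, limma adjusted p = 0.666), with a 95% interval from -2.06 to 0.58, so these arrays bound it only loosely. It came to -0.11 without mutant 1 and to -1.27 without mutant 3. The same-numbered arrays differed by -1.62, -0.61 and 0.01, mutant minus control.

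The mitochondrial creatine kinases gave positive differences. Ckmt2 had log2 intensities of 8.20, 8.62 and 8.68 in the mutants, against 7.81, 7.72 and 7.76 in the controls. The groups were apart by 0.39, and the 3 controls lay within 0.08 of each other. Its difference was 0.73 ± 0.14 (SE, n = 3 each), or 1.66 times the control level (95% interval 1.31 to 2.1), with a limma adjusted p of 0.169. Within the inferred slide the difference was 0.60. Leaving out mutant 3 and control 3 together gave 0.64 with an adjusted p of 0.0265, in a setting where 3890 of 17243 probes were called, and the adjusted p over the 21 other settings ran from 0.0265 to 1. The probes of Mb and Ckmt2 are listed under expressed sequence tags, and where they lie in the transcripts is not known here.

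Ckmt1, the ubiquitous form, was close to background. Its log2 intensities were 6.36, 6.76 and 7.27 in the mutants, against 6.05, 6.20 and 6.37 in the controls. The highest control overlapped the lowest mutant. The spot was flagged above background on 3 of 3 mutant arrays and on 1 of 3 control arrays, at 1.84 to 3.03 times its local background in the mutants and 1.28 to 1.75 times in the controls. The probe entered the test through the mutants, so its difference is given without a test: 0.59 as reported for the others, 0.93 with a background-correction offset of 16 in place of 50, and 1.44 on the background-subtracted intensity. With every array required to be above background, it was not among the probes tested.

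Fabp3 had log2 intensities of 12.53, 12.77 and 12.75 in the mutants, against 12.89, 12.88 and 13.28 in the controls. The mutants lay below the controls by 0.12 at the nearest, less than the spread within either group. The difference was -0.34 ± 0.14 (SE, limma adjusted p = 0.501), or 0.792 of the control level (95% interval 0.627 to 1). Without control 3 it was -0.21. The spot of control 1 carried a contamination flag, and with spots not flagged good set to missing the difference was -0.40.

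The 2 muscle forms of cytochrome oxidase subunits with a probe differed in sign. Cox6a2 had 10.11, 10.12 and 10.41 in the mutants, against 10.61, 10.71 and 11.01 in the controls (log2 intensity). The groups were apart by 0.20, and its difference was -0.57 ± 0.14 (SE, limma adjusted p = 0.262), or 0.676 of the control level (95% interval 0.532 to 0.859). The same-numbered arrays differed by -0.50, -0.59 and -0.61, the narrowest spread of such differences among the members with a negative one. Without mutant 3 and control 3 the difference was -0.55 with an adjusted p of 0.0109, in that same setting of 3890 calls, against a range of 0.0109 to 1 over the 21 other settings.

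Cox7a1 had 11.78, 11.88 and 12.06 in the mutants, against 11.73, 11.58 and 11.71 in the controls (log2 intensity). The lowest mutant lay 0.05 above the highest control. The difference was 0.23 ± 0.11 (SE, limma adjusted p = 0.541), or 1.17 times the control level, with a 95% interval from 0.981 to 1.4 that includes no difference. Within the inferred slide it was 0.10.

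On the inferred slide alone, with 2 mutants against control 1, Ckm differed by -0.88, Ckmt1 by 0.51, Fabp3 by -0.24 and Cox6a2 by -0.49. The signs were those found over all arrays, but these 3 arrays are among the 6, so this is no separate check. The Ckmt1 spot of control 1 was flagged low.

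The members deviated together on mutants 1 and 3, while on control 1 their signs were mixed. Mutant 1 was the lowest of the 3 mutants in 7 of 7 members, where it was lowest in 32.7% of all probes. Mutant 3 was the highest mutant in 6 of 7, the exception being Fabp3, and in 40.5% of all probes. Control 3 was the highest control in 5 of 7 members and in 49.4% of all probes. After each group's mean was taken out, the correlation over the 6 arrays was positive in all 21 pairs of members, from 0.28 for Mb with Fabp3 to 0.97 for Ckm with Ckmt1. These correlations describe 6 arrays and carry no test. Deviations sum to 0 within each group, so fewer than 6 values are free in each correlation. The 21 pairs come from 7 probes and are not independent, and the share of positive pairs among all probes was not computed. Ckmt1, part of the pair with the highest correlation, was above background on 1 of 3 control arrays. Mb and Ckmt1, whose differences between groups had opposite signs, correlated at 0.87, and they deviated the same way on each mutant array. On control 1 they deviated in opposite directions, Mb by 0.04 and Ckmt1 by -0.16.

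**Figure D3:**
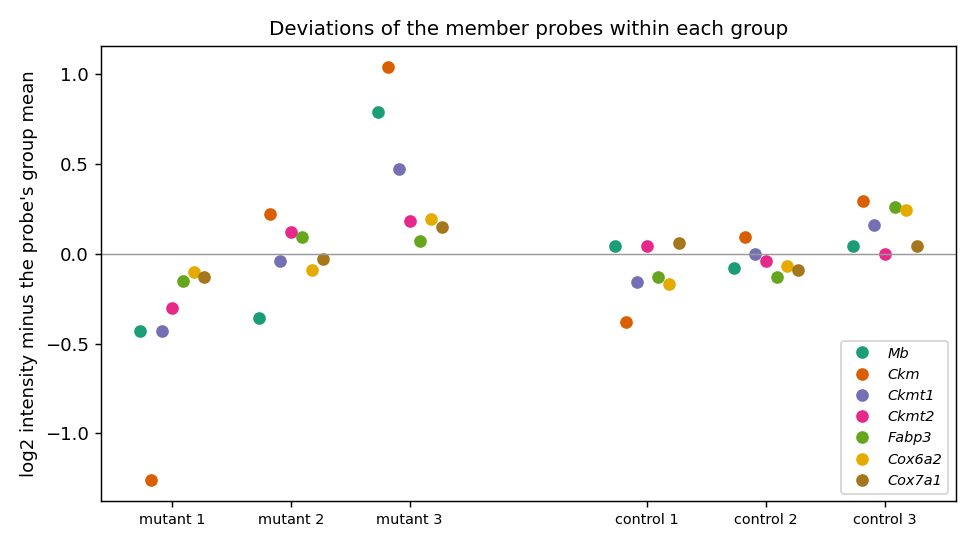
Log2 intensity minus the probe's own group mean (vertical axis) for the 7 members on the mutant arrays (left) and the control arrays (right). All 7 points lie below 0 on mutant 1 and above 0 on mutant 3, and among the controls Ckm at -0.38 on control 1 is the farthest from 0. Fabp3 and Cox6a2 spread more widely in the controls, the other members in the mutants.

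The cell types of the hearts were compared through their markers. The cardiomyocyte markers had a summed authors' normalized intensity of 3209 to 3601 in the mutants and 3113 to 3313 in the controls. Over 18 genes tested there were 10 positive and 8 negative differences, none called, and a median of 0.08. Without overlap, 0 lay above and 2 below: Myl3 (-0.78, limma adjusted p = 0.0836) and Ryr2 (-0.11, 0.678). A dimmer Myl3 probe gave -0.98. The skeletal muscle markers, over 13 tested, summed to 159.7 to 221.4 in the mutants and 180.6 to 207.6 in the controls. Of 19 with a probe, 5 were above background on no array: Myf6, Myh4, Myog, Pax7 and Tnnc2. Of the 13, 5 had a positive and 8 a negative difference, with 3 above and 3 below without overlap. Tnnt1, lower in the mutants, was called. Tnnt3 (2.63, limma adjusted p = 0.126), Tnni2 (0.80, 0.0836) and Mylpf (0.35, 0.332), all of fast skeletal muscle, lay above the controls on every mutant array. None of these was called, and a dimmer Mylpf probe gave 0.10. Mybpc1 (-0.41, limma adjusted p = 0.238) and Cacng1 (-0.15, 0.605) lay below without overlap, as Tnnt1 did, and were not called. The largest negative differences with overlap were those of Myh8 (-1.04), Acta1 (-0.39) and Mybpc2 (-0.13). In erythroid markers, over 12 tested, 10 differences were negative and 2 positive, with a median of -0.29 and none called, and each array's median log2 deviation from the genes' means over all arrays overlapped between groups (mutants -0.18 to 0.03, controls -0.22 to 0.42). The 11 endothelial and endocardial markers tested had 10 negative differences and a median of -0.13, beside 52.4% positive differences over all genes. In 5 of them the mutants lay below the controls without overlap, and the same array medians were -0.19, -0.02 and -0.03 in the mutants, all below the 0.05, 0.07 and 0.08 of the controls. Their summed authors' normalized intensity overlapped between groups, at 114.1 to 135.3 in the mutants and 134.1 to 141.1 in the controls. Groups did not overlap, in either direction, in 15.2% of all genes. Medians were -0.24 for 13 cushion mesenchyme markers and -0.17 for 9 epicardial markers, and lay close to 0 for 10 neural and 4 liver markers, with none called in any of these lists. The cushion mesenchyme markers had 2 genes above and 2 below without overlap. Their summed authors' normalized intensity was 169.2 to 202.1 in the mutants and 151.7 to 173.9 in the controls, higher in most mutants despite the negative median. The epicardial sums were apart, at 103.7 to 128.7 in the mutants and 137.4 to 197.8 in the controls. The part of these cell types in the members' differences was not tested.

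The remaining genes of the same pathways mostly differed by less. Among other cytochrome oxidase subunits, 8 of 13 were tested, 7 with a positive difference, and none was called in either direction. Their median was 0.19, beside 0.01 over all genes tested, and 37.5% had groups that did not overlap, beside 15.2% of all genes. The largest positive difference was that of Cox6b1, at 0.61 ± 0.38 (SE), and it was 0.14 without control 3, chosen after the data were seen, which had 11.95 against 13.20 and 13.52 in controls 1 and 2. The largest negative one was that of Cox4i2, at -0.18 ± 0.24. Of the forms that the muscle subunits replace, Cox6a1 gave 0.18 ± 0.09 and Cox7a2 0.31 ± 0.10, so the Cox6a pair differed in sign and the Cox7a pair did not. The difference between the pairs was not tested.

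In creatine supply and adenylate kinases, 6 of 10 genes were tested, with a median of 0.06 and none called. Gatm, which makes the precursor of creatine, gave -0.31 ± 0.13 (SE), and Ak3, a mitochondrial adenylate kinase, 0.26 ± 0.12. Of other globins and haem genes outside red cells, 4 of 5 were tested with a median of 0.05 and none called, where neuroglobin Ngb gave -0.17 ± 0.11 and Alas1, the first enzyme of haem synthesis, 0.29 ± 0.22. Of other fatty acid binding proteins, 3 of 6 were tested, with a median of -0.37 and none called, and Fabp4 gave -0.59 ± 0.87 and Fabp6 0.03 ± 0.10.

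Fatty acid uptake and oxidation genes, 15 of 19 tested, had 9 positive and 6 negative differences, a median of 0.01 and none called. Lipoprotein lipase, Lpl, gave -1.23 ± 0.60 (SE) and Hadhb, a subunit of the mitochondrial trifunctional protein, 0.53 ± 0.17. Regulators of muscle energy genes, 18 of 19 tested, had a median of 0.07 and none called. Ppargc1b, a coactivator of mitochondrial genes, gave 0.87 ± 0.23, and the myocyte enhancer factor Mef2c -0.40 ± 0.33. Adjusted p of the genes named from these lists was between 0.267 and 0.939 by limma.

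**Figure D4:**
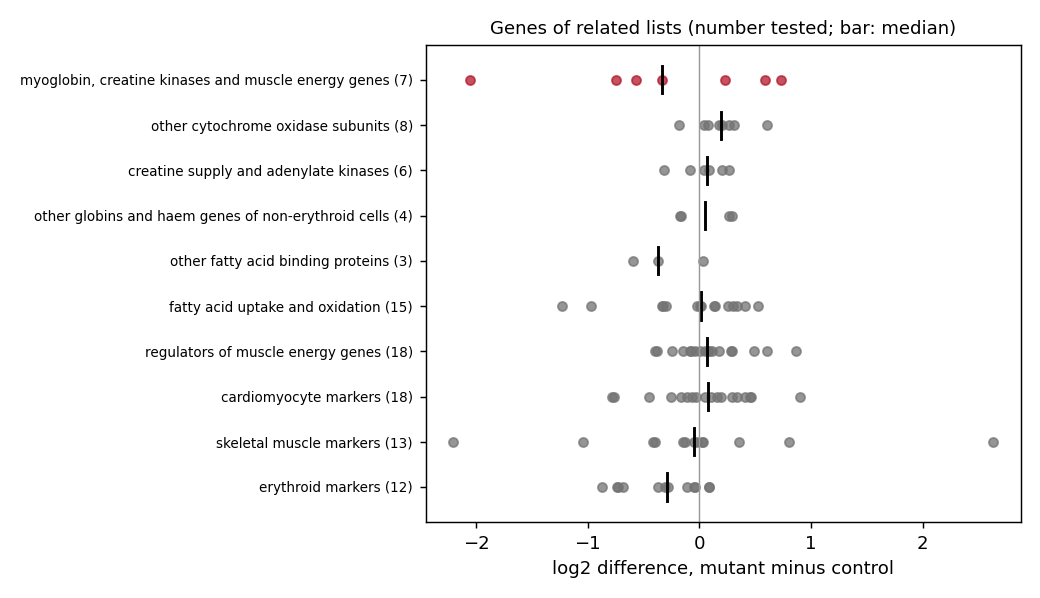
Log2 difference, mutant minus control, of each gene tested in the member set (red, top row) and in related and marker lists (grey), with a bar at each list's median and the number of genes in brackets. Mb at -2.06 lies farther from 0 than any gene of the 6 pathway lists, and the skeletal troponin genes Tnnt1 and Tnnt3 lie farther still.

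Genes were ranked by the Pearson correlation of their log2 values with those of a member over the 6 arrays, as a description with no test. The 5 closest to Mb were Abca8b (0.997), Bdh2 (0.992), Chmp2b (0.991), Eif2ak1 (0.99) and Lmcd1 (0.988). Log2 intensities ran from 6.35 to 6.57 for Abca8b, 6.04 to 6.55 for Eif2ak1 and 6.63 to 7.42 for Bdh2. These are close to those of Ckmt1, a spot near background. Lmcd1, a LIM domain protein of muscle, had 10.09, 10.04 and 10.87 in the mutants, against 11.28, 11.36 and 11.31 in the controls (log2 intensity), so mutant 3 lay between the other mutants and the controls as it did for Mb. Its difference was -0.99 ± 0.22 (SE, limma adjusted p = 0.216), and that of Abca8b was -0.17 ± 0.08 (limma adjusted p = 0.557). The 5 closest to Ckmt2 were Ndufa9 (0.996), a subunit of respiratory complex I, Elp4 (0.992), Tusc3 (0.991), Tpp1 (0.991) and Fam81a (0.991). Their differences lay between 0.19 for Tpp1 and 0.53 for Fam81a, and none of these genes was called.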

How the data were processed

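Each array's deposited file gives, per the file headers, spot mean, local background, background-subtracted and normalized intensity with a quality flag. The authors' normalized intensity was checked to be the subtracted one divided by 1 number per array (66.1 to 82.8), and the series' value table to hold it for spots flagged good. The scanner software is not given in the sources used.

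With limma 3.58.1 (R 4.3.3), normexp background correction (offset 50) was fitted on all spots, and log2 values were quantile-normalized over the spots listed with a gene. Probes above background on at least 3 of 6 arrays (no low or masked flag) were tested, 17727 in all, with lmFit and eBayes, two-sided, and Benjamini-Hochberg adjustment over all of them. A probe was called at an adjusted p under 0.05. The script was tested on simulated data. Genes with more than 1 probe are represented by the brightest. Of 21676 spots with 1 gene, 21541 matched RefSeq genes (GRCm38.p6), and 0 symbols changed. A further 204 spots list several genes and were not named.

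Named genes are every member, Dicer1, from each pathway list those called or else the largest positive and negative difference, and the 5 genes closest to Mb and to Ckmt2, clone names left out. Acta1, Cacng1, Cox6a1, Cox7a2, Ctse, Mybpc1, Mybpc2, Myh8, Myl3, Mylpf, Ryr2, Tnni2, Tnnt1 and Tnnt3 were named after their values were seen. Members and lists were chosen with earlier results of these data known. The number of arrays limits the precision.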

Additional observations from a re-analysis of the deposited data

How the results depend on the processing

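Each of the 7 members kept its sign in every alternative that gave it a value, up to 21 each. The alternatives all draw on the same 6 arrays. The number of probes called, 9 (5 higher, 4 lower), became 5 (2 higher, 3 lower) with the subtracted intensity, with the authors' normalized intensity and with the series' value table alike. It was 1347 with the inferred slide as a fixed block, which rests on 3 arrays, and stayed at 9 (5 higher, 4 lower) with 0 members called with the slide as a random block. It ranged from 0 to 316 with 1 array left out, 316 being without control 3 and 1 without mutant 3. Without both arrays of the first or of the second title number it was 0, and without those of the third 3890. Member probes called, 0 as reported, became 1 (Mb) with the inferred slide as a fixed block, ranged from 0 to 1 with 1 array left out, and became 3 (Mb, Ckmt2 and Cox6a2) without both arrays of the third title number. The cause of these shifts was not tested. Whether the title numbers shared by a mutant and a control pair the arrays is not known here. Deviations of same-numbered arrays correlated at 0.014, -0.48 and -0.381, and mutant 2 correlated with control 3 at 0.557. Such deviations sum to 0 within each group, so these correlations depend on one another and cannot exclude pairing. With the title number as a replicate block 0 probes passed, with 1322 at an unadjusted p under 0.05, and 0 members. Averaging the probes of a gene gave no value here because each member has 1 probe. Signal over background limits Ckmt1, whose difference lay between 0.36 and 1.44.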
